A study of Mus musculus with 6 samples.

Results

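Splenocytes of female NZB/WF1 mice that carried a 17-beta estradiol (E2) implant were compared with those of mice that carried an empty placebo implant. The NZB/WF1 hybrid develops a lupus-like autoimmune disease, and every mouse of the series shared that background, so no group stands for a healthy mouse. Implants were placed at 6 to 7 weeks of age, and the cells were collected after 9 weeks. The comparison holds the 4 samples that the labels give to these treatments, out of 6 in the series: 2 E2 samples (replicates 1 and 2) and 2 placebo samples (replicates 22 and 26). The 2 further samples (replicates 11 and 14) came from mice with implants of 17alpha-ethinyl estradiol (EE), the synthetic estrogen used in oral contraceptives. They entered the fit to help estimate the spread and are described only where E2 and EE were compared. Total RNA was measured on the NanoString nCounter mouse immunology panel, in which each transcript is bound by its own colour-coded probe and single molecules are counted without amplification. Neither the implant dose nor the blood level of estrogen is given in the sources used here. No label ties a sample to 1 mouse or to a pool, so every p-value below rests on the spread between samples, which may be technical.

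Estradiol acts mainly through the nuclear receptors ERα and ERβ, which bind DNA at estrogen response elements or through other factors, and which are present in blood stem cells, stromal cells and most immune cells. In mice, sustained estrogen exposure is known to shrink the thymus, to lower B cell production in the marrow and to make new bone that narrows the marrow space. The mouse spleen keeps a red pulp in which red cells, platelets and granulocytes can be made throughout life, beside a white pulp of B and T cells. A spleen sample therefore holds mature lymphocytes, resident macrophages and, to a varying degree, blood precursors. Estrogen also speeds disease in this strain, in which autoreactive B cells and interferon are part of the known course.

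The table gave one value per gene for 561 genes. The values were whole numbers that, from their own pattern, appear to have been scaled to the panel's reference genes before deposit. They are called normalised counts below. A gene was tested where its mean over the 6 samples reached 20, which 457 genes did and 104 did not. Gene totals ranged from 646299 to 863942 per sample, and the background of the assay, at 2 SD above the average negative control, was 10.1 to 13.7. Each difference is a log2 fold change of E2 over placebo with its standard error (SE) from limma, fitted on log2 of the value plus 1, and each p is adjusted over the 457 genes by the Benjamini-Hochberg method. A gene is called higher or lower where this adjusted p is under 0.05. The SE rests almost wholly on a spread shared between genes of like level, since 3 residual degrees of freedom were available. Calls were therefore repeated in 20 alternative settings, among them 6 other scalings, each sample left out in turn and each gene tested on its own variance, and a call made in every setting that tested the gene is termed stable below. Genes with a mean under 50 were not tested in 1 of the settings, which kept only those at or above it. Fewer cells of a type and less RNA per cell cannot be told apart in such bulk samples.

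E2 and placebo differed over most of the panel. Of the 457 genes, 63 were higher in E2 (13.8%) and 272 were lower (59.5%), while 122 passed in neither direction. The stable calls numbered 33 higher (7.22%) and 100 lower (21.9%), of which 30 and 94 were tested in all 20 settings. Increases were fewer but larger: 33 genes rose and 75 fell more than 2-fold, 7 rose more than 8-fold, and 2 fell more than 4-fold. Both E2 samples lay above both placebo samples for 83 genes and below them for 309, and for 65 genes the groups overlapped. Within a group the samples were closer to each other, with a median absolute log2 difference of 0.193 between the E2 samples and 0.192 between the placebo samples, where the median absolute fold change between the groups was 0.691 on the same scale.

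The share of genes on each side depended on the scale. As deposited, the median gene had a log2 fold change of -0.56. When the median gene was set to 0 in place of the reference genes, 134 genes were higher (29.3%) and 105 were lower (23%), and the plot of calls by scaling shows the splits in between. Directions of modest size, up to about the size of that median, are therefore relative to the reference genes. A list's share of lower members is to be read against the 59.5% of all genes that were lower as deposited, and against the 23% at the panel median scale. Medians of gene lists are given below with their range over the 7 scalings, the deposited one included, and all tested genes had a range of -0.65 to 0.00.

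**Figure D1:**
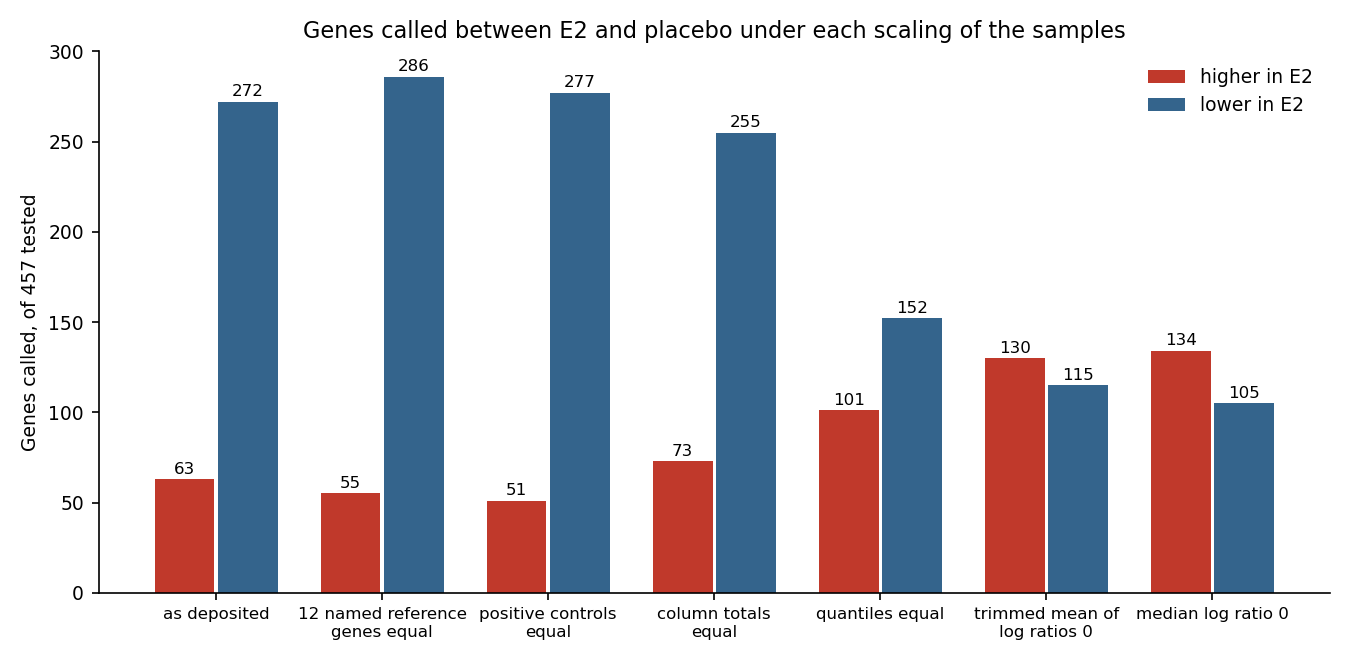
Numbers of genes called between E2 and placebo (vertical axis, of 457 tested) under each scaling of the samples (horizontal axis), with genes higher in E2 in red and lower in blue. The deposited scale gave 63 higher and 272 lower, and the scale that sets the median log ratio to 0 gave 134 higher and 105 lower.

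**Figure D2:**
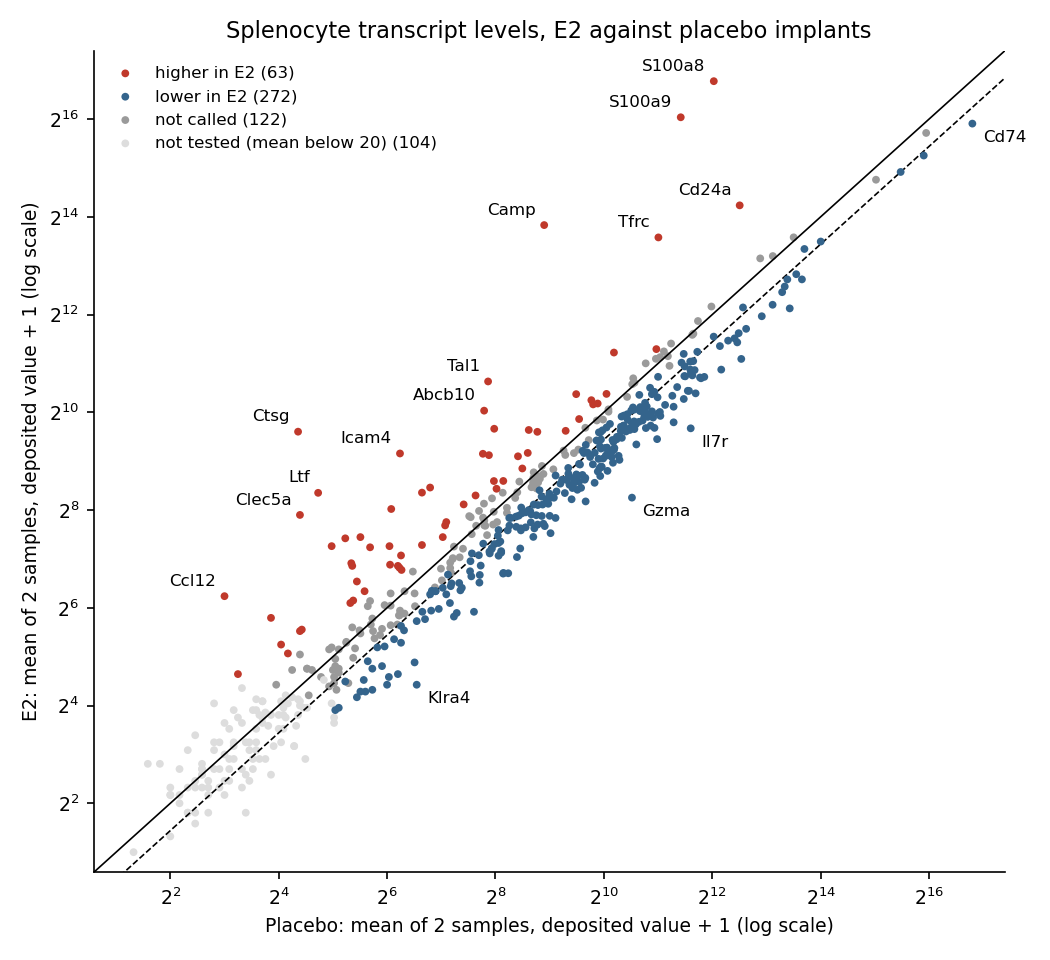
Mean normalised count plus 1 of 2 E2 samples (vertical axis) against 2 placebo samples (horizontal axis) for each of 561 genes, on log scales. The solid line marks equal levels and the dashed line the median fold change of tested genes. S100a8, S100a9 and Camp stand far above the line, and the bulk of genes lies below it.

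Neutrophil granule genes gave the largest rises. Camp encodes cathelicidin, an antimicrobial peptide stored in neutrophil granules. It stood at 14127 and 15047 normalised counts in the E2 samples, against 584 and 369 in the placebo samples, a 31.3-fold rise (log2 fold change 4.97 ± 0.13, limma adjusted p = 1.68e-99, and 0.0176 on its own variance). S100a8 and S100a9 encode the chains of calprotectin, which makes up much of the neutrophil cytosol. S100a8 had 103948 and 120698 in E2 and 5169 and 3189 in placebo (4.79 ± 0.15), and S100a9 had 63594 and 71032 in E2 and 3413 and 2063 in placebo (4.66 ± 0.14). The E2 samples were high for all 3 genes with no overlap between groups, and placebo replicate 22 stood above replicate 26 for each. The 3 transcripts together made up 22.4% and 26.8% of the gene total in the E2 samples, against 1.11% and 0.651% in the placebo samples.

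The promoters of these 3 genes and of Icam4, a red cell gene described further down, are shown because they belong to the groups with the largest rises. Each run is the 250 bases before the start of the RefSeq transcript on GRCm38.p6, written 5′ to 3′ on the strand of the gene. Capitals mark matches on either strand to a C/EBP-type motif, TTNNGNAA, or a GATA motif, AGATAA. C/EBP factors drive granulocyte genes and GATA factors drive red cell and megakaryocyte genes.
Camp, chr9:109849457-109849706, minus strand: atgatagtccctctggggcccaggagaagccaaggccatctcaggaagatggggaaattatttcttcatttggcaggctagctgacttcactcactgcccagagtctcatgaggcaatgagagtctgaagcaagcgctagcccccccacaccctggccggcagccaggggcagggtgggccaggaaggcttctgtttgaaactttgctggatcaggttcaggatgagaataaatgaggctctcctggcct
S100a8, chr3:90668821-90669070, plus strand: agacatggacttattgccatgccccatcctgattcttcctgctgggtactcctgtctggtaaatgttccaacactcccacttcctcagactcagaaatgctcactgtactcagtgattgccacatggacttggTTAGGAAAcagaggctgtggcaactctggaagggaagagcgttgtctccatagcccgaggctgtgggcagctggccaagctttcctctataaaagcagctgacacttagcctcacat
S100a9, chr3:90695722-90695971, minus strand: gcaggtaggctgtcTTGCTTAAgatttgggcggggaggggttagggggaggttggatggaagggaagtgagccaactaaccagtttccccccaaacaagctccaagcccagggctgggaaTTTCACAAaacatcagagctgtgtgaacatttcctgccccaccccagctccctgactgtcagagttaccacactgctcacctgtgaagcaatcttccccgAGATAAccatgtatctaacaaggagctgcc
Icam4, chr9:21029182-21029431, plus strand: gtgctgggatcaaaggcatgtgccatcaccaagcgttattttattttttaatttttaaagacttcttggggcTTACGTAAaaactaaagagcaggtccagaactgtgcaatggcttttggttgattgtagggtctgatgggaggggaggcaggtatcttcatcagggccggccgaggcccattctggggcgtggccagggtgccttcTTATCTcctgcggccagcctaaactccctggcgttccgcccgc
The Camp window held neither motif, that of S100a8 held 1 C/EBP-type match, that of S100a9 held 2 and 1 GATA match, and that of Icam4 held 1 of each. RefSeq windows were found for 345 of the 457 tested genes. The C/EBP-type motif stood in 31 of 65 windows of genes higher in E2 (47.7%) and in 78 of 246 of genes lower in E2 (31.7%), beside 36.9% of all 32851 windows in the table. The GATA motif stood in 10 of the 65 windows of genes higher in E2 (15.4%) and in 19 of those of genes lower in E2 (7.72%), beside 9.99% of all windows. Genes not called had the C/EBP-type motif in 46 of 116 windows (39.7%) and the GATA motif in 9 (7.76%). Counted by gene, the C/EBP-type motif was matched in 25 of 50 higher, 70 of 198 lower and 46 of 97 not called. The GATA motif was matched in 8, 19 and 9 of these genes. By gene, the C/EBP-type shares of genes higher and not called were closer than by window. These differences in share were not tested. An estrogen response element, GGTCA and TGACC separated by any 3 bases, was matched in 0 windows of the tested genes and in 21 of all windows in the table. A match describes letters and not a binding site, and some genes have more than 1 window.

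Ctsg and Ltf completed this list, of which 5 of 5 members were higher and stable, with a median log2 fold change of 4.79 (4.69 to 5.35 over the scalings). Ctsg, the granule protease cathepsin G, which is made early in granulocyte maturation, had 591 and 964 in E2 and 29 and 10 in placebo (5.38 ± 0.20). One placebo value of Ctsg was at the background, and the fold change was 6.10 without placebo replicate 22 and 4.66 without placebo replicate 26. Ltf encodes lactoferrin, an iron-binding protein of later granules, and had 270 and 382 in E2 and 26 and 25 in placebo (3.60 ± 0.22). Genes of both early and late granules were high in both E2 samples.

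Surface receptors of neutrophils and other myeloid cells had a smaller median change than the granule genes. Of 11 tested members 7 were higher and 1 was lower (median 0.69, 0.60 to 1.25), of which 5 and 1 were stable. Clec5a, a lectin-type receptor that signals through DAP12, had 227 and 249 in E2 and 21 and 19 in placebo (3.51 ± 0.24, adjusted p = 2.32e-33). Ltb4r1, the receptor for the attractant leukotriene B4, had 137 and 168 in E2 and 36 and 25 in placebo (2.30 ± 0.25). Cxcr2, the chemokine receptor that calls neutrophils out of the marrow, had 236 and 282 in E2 and 86 and 47 in placebo (2.0 ± 0.22), and Itgam, the integrin chain CD11b, had 778 and 843 in E2 and 275 and 227 in placebo (1.69 ± 0.15). Csf3r, the receptor for the growth factor G-CSF, was closer between groups, with 208 and 222 in E2 and 163 and 108 in placebo (0.69 ± 0.21, adjusted p = 0.00156). Its call was lost without placebo replicate 26 (0.40, adjusted p = 0.106) and on its own variance (adjusted p = 0.0953).

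The C-type lectin list shared Clec5a with these receptors. It held 5 tested members, 3 higher and 1 lower. Clec4e, the receptor Mincle, which senses mycobacterial and fungal lipids, had 101 and 129 in E2 and 58 and 22 in placebo (1.64 ± 0.27). The 2 placebo samples differed widely for Clec4e, its fold change was 0.96 without placebo replicate 26 and 2.32 without placebo replicate 22, and on its own variance the call was lost (adjusted p = 0.0982). Card9, the adaptor downstream of such receptors, had 136 and 169 in E2 and 71 and 59 in placebo (1.22 ± 0.23). The kinase Syk, which couples lectin receptors but also the B cell receptor, was lower, with 1805 and 1580 in E2 and 3308 and 4093 in placebo (-1.12 ± 0.13).

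**Figure D3:**
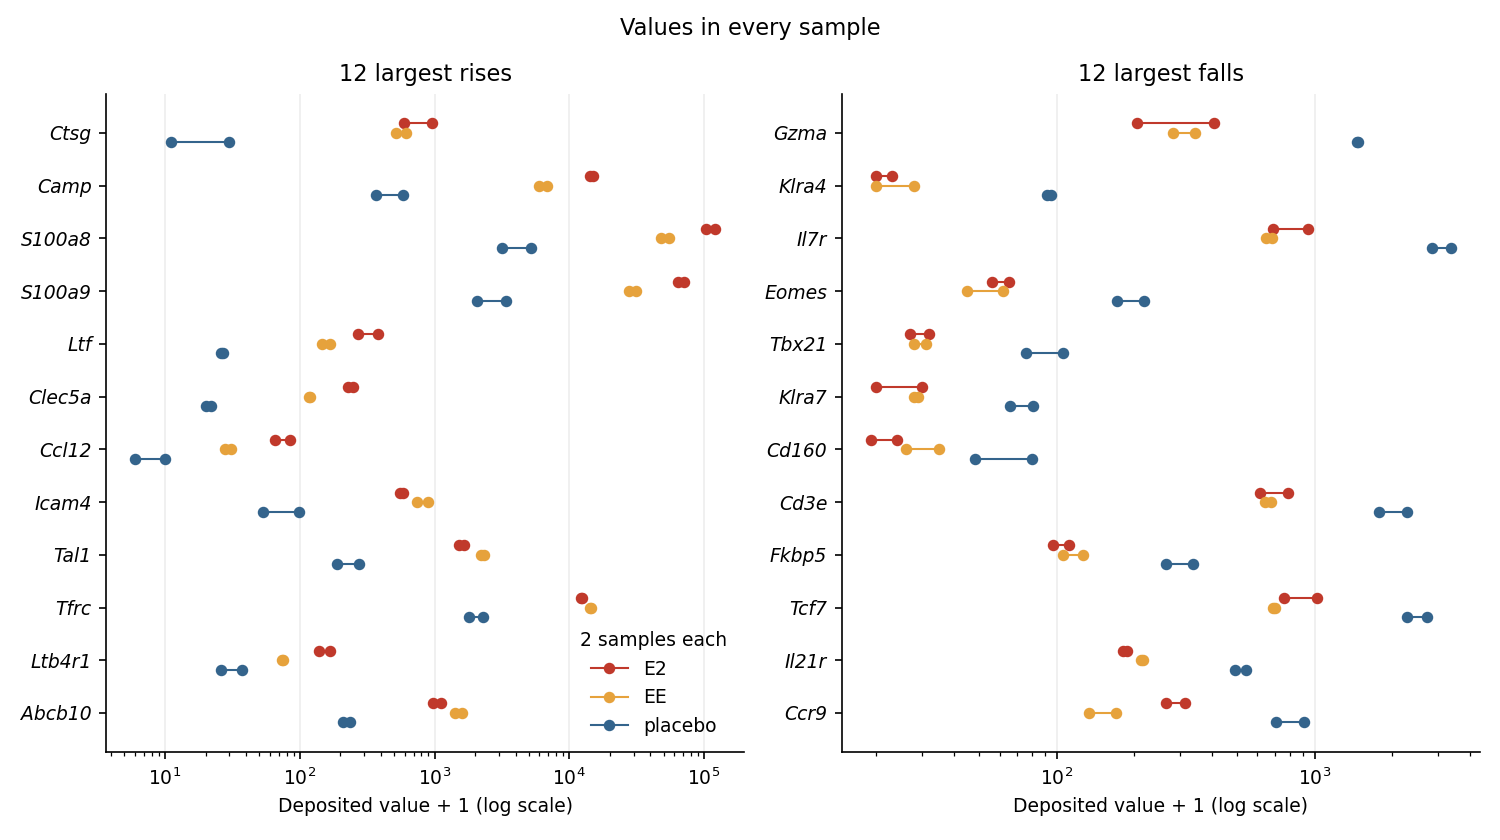
Normalised count plus 1 in every sample (horizontal axis, log scale) for the 12 genes with the largest rises (left) and the 12 with the largest falls (right) in E2 against placebo. Red points are E2, orange points EE and blue points placebo, with a line between the 2 samples of a group. The genes were chosen among those whose E2 and placebo samples do not overlap, so that their separation is no result.

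Genes of red cell precursors had the second largest median rise among the lists. All 5 tested members of the erythroid list were higher and stable, with a median of 2.58 (2.49 to 3.15). Icam4, an adhesion protein of the red cell surface, had 585 and 556 in E2 and 97 and 52 in placebo (2.99 ± 0.17, adjusted p = 1.58e-42, and 0.0236 on its own variance). Tal1, a transcription factor needed for the red cell and megakaryocyte lines, had 1521 and 1652 in E2 and 275 and 189 in placebo (2.79 ± 0.14). Tfrc, the transferrin receptor through which precursors take up iron, had 12165 and 12323 in E2 and 2304 and 1810 in placebo (2.58 ± 0.13). The 2 E2 values of each gene lay close together and above both placebo values. Abcb10, a mitochondrial transporter used in haem formation, had 979 and 1117 in E2 and 233 and 208 in placebo (2.24 ± 0.14).

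Cd24a also belonged to this list and to the B cell list. It encodes a surface glycoprotein of red cell precursors, granulocytes and immature B cells. It had 18642 and 19953 in E2 and 6658 and 4982 in placebo (1.74 ± 0.14), whereas 14 of the 16 tested members of the B cell list were lower. Prim1 was 1 of 7 genes outside every list that were higher, and it is named after its value was seen. It encodes the DNA primase subunit used in replication, and had 529 and 585 in E2 and 255 and 214 in placebo (1.25 ± 0.15). In a list of haem, iron and oxidation genes, 4 of 5 tested members were higher and 0 lower. Tfrc and Abcb10, already counted in the erythroid list, were among them. The others were G6pdx, the first enzyme of the pentose phosphate pathway (724 and 869 in E2, 413 and 369 in placebo, 1.02 ± 0.15), and Alas1, the first enzyme of haem synthesis outside red cells (0.61 ± 0.20). The call of Alas1 was lost without E2 replicate 2 (0.46, adjusted p = 0.0855) and on its own variance (adjusted p = 0.0682). G6pdx and Alas1 are also reference genes of the panel.

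Platelet and megakaryocyte genes had a smaller median change. Of 5 tested members 4 were higher, 2 of them stably (median 0.73, 0.64 to 1.29). Ppbp, a chemokine stored in platelets, had 638 and 498 in E2 and 256 and 178 in placebo (1.40 ± 0.15, adjusted p = 1.92e-16). Cd36, a fatty acid and thrombospondin receptor of platelets and red pulp macrophages, had 2456 and 2326 in E2 and 1246 and 1083 in placebo (1.04 ± 0.13). Itga2b, the platelet integrin chain that binds fibrinogen, had 94 and 66 in E2 and 46 and 48 in placebo (0.73 ± 0.23). Its call was lost without E2 replicate 1 (0.48, adjusted p = 0.179) and without placebo replicate 22 (0.70, adjusted p = 0.0592). Cd9, a tetraspanin of platelets and B cells, rose by less (0.49 ± 0.14), with 0.32 left without placebo replicate 26 and no call on its own variance (adjusted p = 0.0726).

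**Figure D4:**
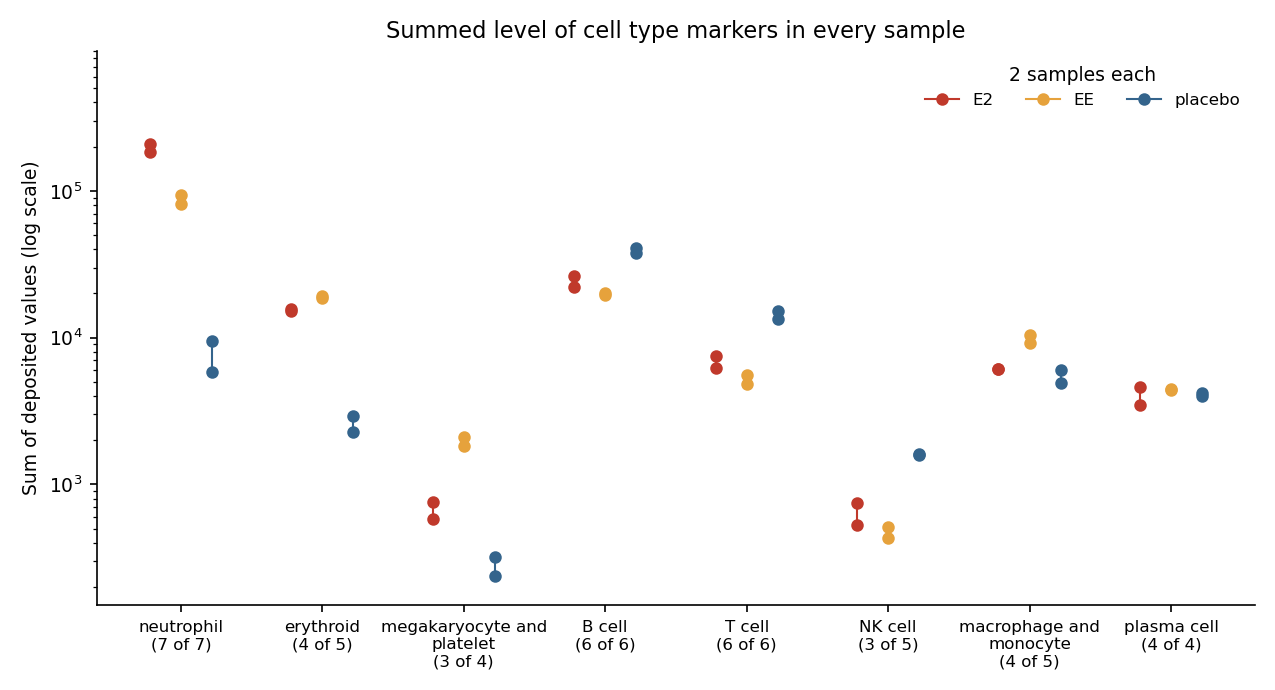
Sum of the normalised counts of the markers of each cell type (vertical axis, log scale) in every sample, with E2 in red, EE in orange and placebo in blue. The numbers below give the markers on the panel of those listed. Neutrophil sums were 182974 and 208627 in E2 and 9470 and 5811 in placebo, and T cell sums were 7475 and 6256 in E2 and 13474 and 15169 in placebo.

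Summed over each marker list, cell types moved in different directions. Erythroid markers, of which Gata1 was not on the panel, summed to 15250 and 15648 in E2 and 2909 and 2259 in placebo. B cell markers summed to 26442 and 22008 in E2 and 37529 and 40699 in placebo, and the 3 of 5 natural killer (NK) cell markers that the panel held to 746 and 526 in E2 and 1599 and 1586 in placebo. Macrophage and monocyte markers summed to 6076 and 6145 in E2 and 5976 and 4930 in placebo, and plasma cell markers to 4579 and 3472 in E2 and 4222 and 3990 in placebo. E2 samples were above placebo samples for the erythroid sums and below them for the B cell and NK cell sums, while the plasma cell sums overlapped. For the macrophage sums E2 stood above placebo only narrowly (6076 against 5976 at the closest), with 1 of 4 tested markers called higher. None of the markers was at 0 in every sample, and B and T cell markers were abundant in all 4 samples, as the label of splenocytes implies. Sums are led by the most abundant marker of each list and are not cell numbers. The lymphocyte genes below were thus lower in the same samples in which neutrophil and erythroid markers were higher, and the part of the cell makeup in their changes was not tested.

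Macrophage genes depended on the scale. The list had 2 of 12 tested members higher and 3 lower as deposited, against 9 higher and 0 lower at the panel median scale, with 0 stable calls and a median of 0.05 that ran from -0.05 to 0.61. The markers Csf1r, the receptor for the macrophage growth factor, with 1584 and 1531 in E2 and 1616 and 1414 in placebo (0.04 ± 0.13, adjusted p = 0.781), and C1qa (0.14 ± 0.13) and C1qb (0.25 ± 0.13), chains of the complement starter C1q, passed in neither direction as deposited. At the panel median scale these 3 markers were higher (0.61, 0.70 and 0.81), and C1qb also passed without placebo replicate 22 (0.48). Cd14, a co-receptor for bacterial lipopolysaccharide, was higher (0.70 ± 0.18), but not without placebo replicate 26 (0.40, adjusted p = 0.063) or on its own variance (adjusted p = 0.107). Marco, a scavenger receptor of marginal zone macrophages, had 48 and 43 in E2 and 65 and 92 in placebo (-0.75 ± 0.26), and its call was lost without E2 replicate 2 (-0.68, adjusted p = 0.0694) and without placebo replicate 26 (-0.51, adjusted p = 0.114). The same was so of Cx3cr1, the fractalkine receptor of patrolling monocytes (-0.80 ± 0.28), without E2 replicate 2 (-0.66, adjusted p = 0.131) or placebo replicate 22 (-0.51, adjusted p = 0.172).

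Complement genes included members that moved in each direction. Of 28 on the panel 13 were tested, with 4 higher and 4 lower as deposited and 9 higher and 2 lower at the panel median scale (median 0.14, 0.04 to 0.70). C3, the component on which the complement routes converge, had 281 and 373 in E2 and 122 and 76 in placebo (1.74 ± 0.19, adjusted p = 8.78e-16), and its call was stable. Cfb, factor B of the alternative route, was stably lower, with 19 and 15 in E2 and 39 and 46 in placebo (-1.28 ± 0.35). Cr2, the complement receptor of mature and marginal zone B cells, had 913 and 886 in E2 and 1343 and 1671 in placebo (-0.74 ± 0.14), but passed in neither direction at the panel median scale (-0.17). Cd55, which shields cells from complement, was lower as well (-0.80 ± 0.13).

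Fc receptors, which bind the constant part of antibodies, had 3 of 6 tested members higher and 1 lower, with 0 stable calls, and 4 higher and 0 lower at the panel median scale. Fcgr2b, the inhibitory receptor carried by B cells, had 1780 and 1631 in E2 and 2692 and 3104 in placebo (-0.76 ± 0.13). The activating receptor Fcgr3 had 381 and 390 in E2 and 291 and 209 in placebo (0.64 ± 0.17), with 0.40 left without placebo replicate 26 and no call on its own variance (adjusted p = 0.0761). Fcgr1, the high-affinity receptor (0.41 ± 0.19), and Fcer1g, the shared signalling chain (0.33 ± 0.14), lost their calls without placebo replicate 26 (0.31 and 0.13, adjusted p = 0.202 and 0.408). They also lost them without E2 replicate 2 (0.26 and 0.34, adjusted p = 0.294 and 0.109) and, for Fcer1g, without E2 replicate 1 (adjusted p = 0.109). Placebo replicate 22 was the higher of its group for each of these 3 activating genes.

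T cell genes were lower in E2 almost throughout. Of 15 tested genes listed under the T cell receptor complex and its coreceptors 14 were lower and 0 were higher, 10 of them stably. The list median was -1.07 (-1.16 to -0.51). The member that did not pass was Cd3eap (0.10 ± 0.32), which despite its name does not encode a part of the receptor complex. Cd3e, a signalling chain of the receptor complex, had 788 and 611 in E2 and 1769 and 2278 in placebo (-1.53 ± 0.14, adjusted p = 1.25e-21, and 0.0239 on its own variance). Lck, the kinase that starts the receptor signal, had 2019 and 1735 in E2 and 4068 and 5125 in placebo (-1.29 ± 0.13). The coreceptors of helper and killer T cells were both lower, Cd4 with 924 and 771 in E2 and 1615 and 2112 in placebo (-1.13 ± 0.14) and Cd8a with 310 and 285 in E2 and 673 and 681 in placebo (-1.18 ± 0.16). Fyn, a kinase of the same signal, fell by 1.12 on the log2 scale.

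Genes of naive T cells were lower without exception. All 8 tested members were lower, 7 of them stably (median -1.22, -1.32 to -0.66). Il7r, the receptor for the survival factor interleukin-7, had 945 and 686 in E2 and 2853 and 3368 in placebo, a 3.85-fold lower level (-1.94 ± 0.14, adjusted p = 3.19e-32, and 0.0236 on its own variance). Tcf7, which encodes the T cell factor TCF-1, had 1020 and 756 in E2 and 2272 and 2728 in placebo (-1.50 ± 0.14). Ccr7, the receptor that guides naive T cells into the white pulp, had 1362 and 1112 in E2 and 2752 and 2940 in placebo (-1.21 ± 0.13), and Ets1, a transcription factor of resting lymphocytes, had 4858 and 4089 in E2 and 9818 and 12262 in placebo (-1.30 ± 0.13). E2 replicate 1 was the higher of its group for each of these genes and still below both placebo samples.

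The largest falls were those of genes of cytotoxic lymphocytes. Gzma, the granule protease granzyme A of NK and killer T cells, had 406 and 203 in E2 and 1470 and 1463 in placebo, 5.09-fold lower (-2.35 ± 0.16, adjusted p = 5.47e-34, and 0.0288 on its own variance). The E2 samples differed more from each other than the placebo samples did, and both lay below both placebo samples. Eomes and Tbx21 encode T-box transcription factors that set the killer programme. Eomes had 64 and 55 in E2 and 170 and 217 in placebo (-1.68 ± 0.24), and Tbx21 had 26 and 31 in E2 and 75 and 105 in placebo (-1.61 ± 0.30). Their list had 10 of 11 tested members lower and 0 higher, 6 stably, with a median of -1.43 (-1.53 to -0.87).

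Other members of the cytotoxic list moved in the same direction. Prf1, the pore-forming protein perforin, had 70 and 41 in E2 and 134 and 165 in placebo (-1.45 ± 0.26). Runx3, a factor of killer T cell identity, had 114 and 94 in E2 and 254 and 311 in placebo (-1.43 ± 0.21), and Cd160, a receptor of NK and killer T cells, had 18 and 23 in E2 and 47 and 79 in placebo (-1.54 ± 0.32). Ifng, which encodes interferon-gamma, was the member that did not pass, with 28 and 21 in E2 and 35 and 32 in placebo (-0.45 ± 0.35, adjusted p = 0.239).

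Receptors of NK cells were lower with 1 exception. Of 13 on the panel 7 were tested, 6 were lower and 1 was higher. Klrd1, the CD94 chain of several NK receptors, had 612 and 430 in E2 and 1295 and 1204 in placebo (-1.28 ± 0.15, adjusted p = 8.88e-15). Klrk1, the activating receptor NKG2D, had 254 and 202 in E2 and 500 and 602 in placebo (-1.27 ± 0.17). Of the Ly49 family, Klra4 had 19 and 22 in E2 and 91 and 94 in placebo (-2.12 ± 0.31), Klra7 29 and 19 in E2 and 65 and 80 in placebo (-1.58 ± 0.31), and Klra8 117 and 89 in E2 and 266 and 297 in placebo (-1.45 ± 0.21). Ly49 genes are near-identical copies whose probes may count each other, so their single values are uncertain. The exception, named after its value was seen, was Ncam1, a neural adhesion molecule that marks NK cells in human, with 52 and 57 in E2 and 16 and 11 in placebo (1.96 ± 0.34).

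**Figure D5:**
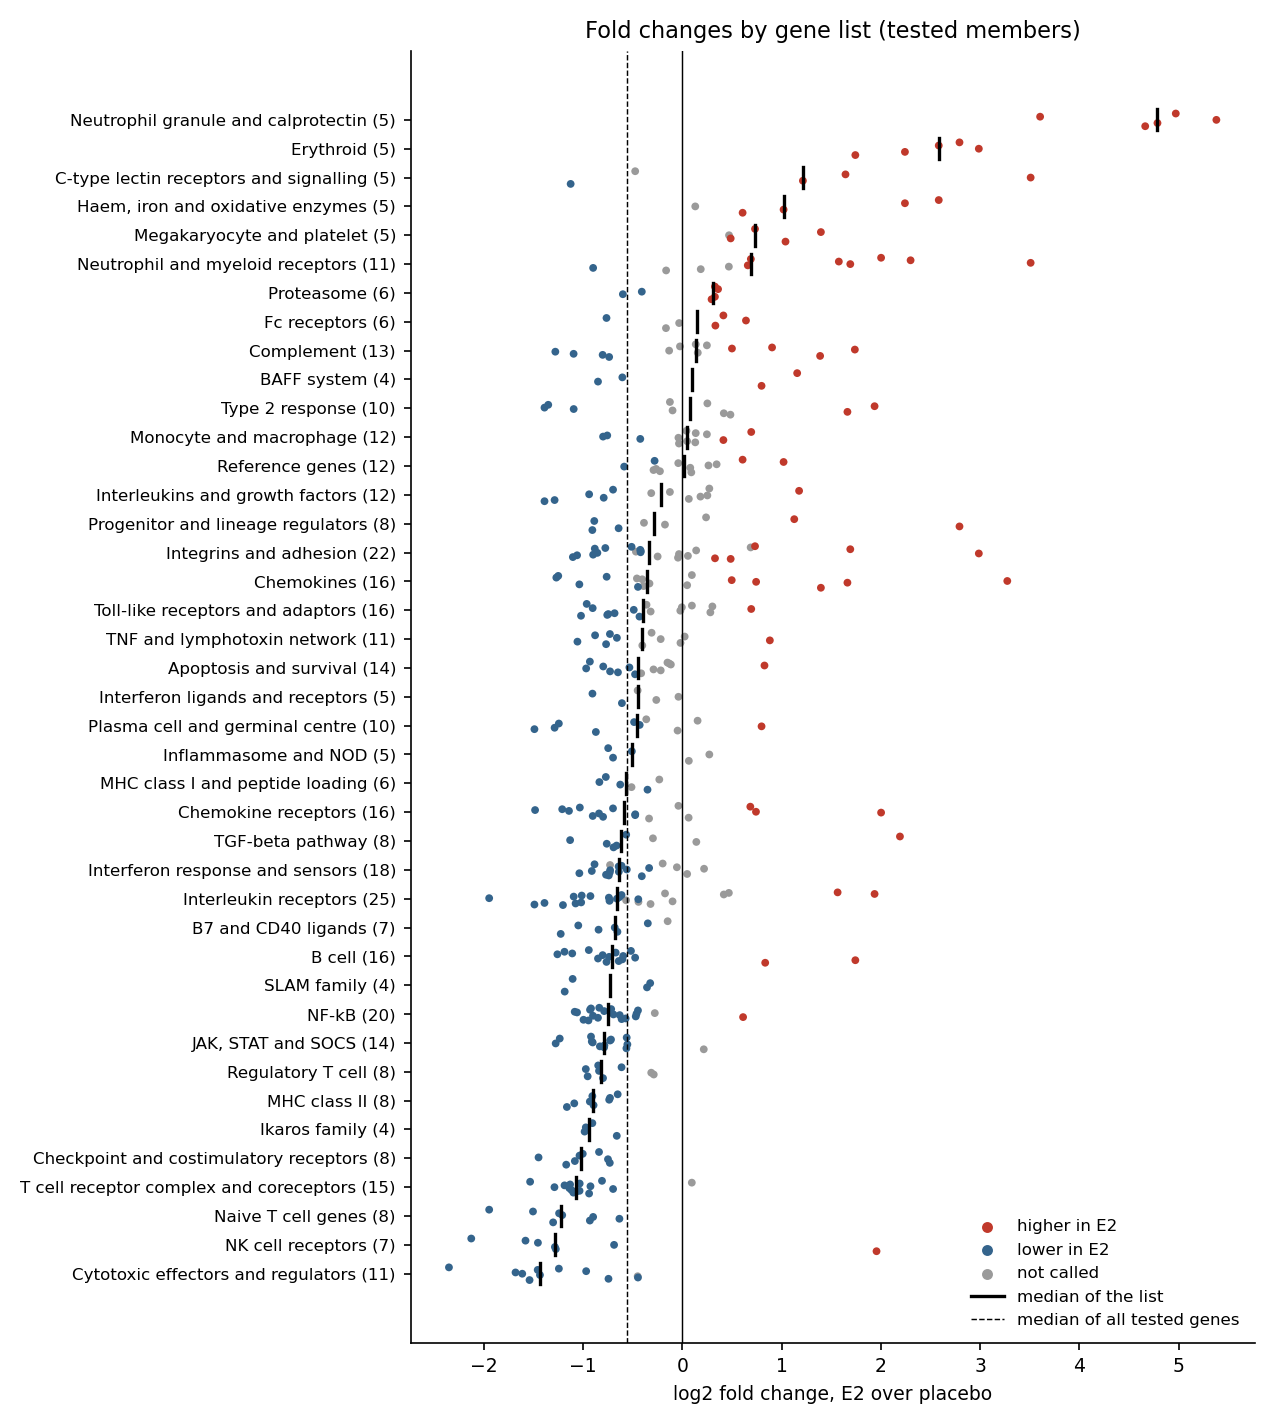
The log2 fold change of E2 over placebo (horizontal axis) of every tested gene in each list with at least 4 tested members (rows, with the number tested), ordered by the list median, which a black bar marks. Red points are higher in E2, blue points lower and grey points not called. Granule and erythroid genes stand on the right, cytotoxic, NK and T cell genes on the left, and the dashed line marks the median of all tested genes at -0.56.

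Receptors that restrain or help T cells were lower in 8 of 8 tested cases, 3 of them stably (median -1.02, -1.11 to -0.46). Btla, an inhibitory receptor of B and T cells, had 2442 and 1926 in E2 and 5367 and 6512 in placebo (-1.45 ± 0.13). Cd27, a costimulatory receptor of the TNF receptor family, had 600 and 503 in E2 and 1201 and 1271 in placebo (-1.17 ± 0.15). Ctla4 (-0.84 ± 0.16) and Icos (-0.75 ± 0.16) were lower as deposited and passed in neither direction at the panel median scale (-0.27 and -0.18). Their partners on other cells included Icosl, the Icos ligand (500 and 449 in E2, 870 and 1103 in placebo, -1.05 ± 0.15), and Cd40lg, the T cell signal that helps B cells (190 and 158 in E2, 330 and 499 in placebo, -1.22 ± 0.18), both stably lower. Sh2d1a, the adaptor SAP of the SLAM receptors, was stably lower too, with 245 and 175 in E2 and 481 and 462 in placebo (-1.18 ± 0.18).

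Genes listed for regulatory T cells were lower in 6 of 8 tested cases as deposited and in 2 at the panel median scale (median -0.82, -0.91 to -0.25). The lower ones included Gpr183 (-0.80 ± 0.14, with its call lost at the panel median scale, -0.23), which is not particular to regulatory T cells. Foxp3, the factor that defines these cells, had 106 and 74 in E2 and 160 and 160 in placebo (-0.85 ± 0.22, adjusted p = 2.76e-04). It passed in neither direction at the panel median scale (-0.29, adjusted p = 0.192) and on its own variance (adjusted p = 0.0561). Ikzf2, the factor Helios, had 380 and 318 in E2 and 628 and 741 in placebo (-0.97 ± 0.16), and Nt5e, the enzyme CD73 that makes adenosine, had 155 and 129 in E2 and 278 and 271 in placebo (-0.95 ± 0.19), both stably lower. Il10, an anti-inflammatory cytokine, had 22 and 13 in E2 and 30 and 15 in placebo, with overlapping groups (-0.31 ± 0.37, adjusted p = 0.453).

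Most B cell genes were lower as deposited, by less than T cell genes in the median. Of 16 tested members 14 were lower and 2 higher, 5 and 1 stably, and the median was -0.70 (-0.80 to -0.14). Cd22, an inhibitory receptor of the B cell surface, had 463 and 428 in E2 and 950 and 1194 in placebo (-1.26 ± 0.15, adjusted p = 3.65e-14). Pax5, the factor that fixes B cell identity, had 1522 and 1257 in E2 and 2692 and 3301 in placebo (-1.11 ± 0.13). Ms4a1, which encodes CD20, differed least among the 6 B cell markers, with 12838 and 10261 in E2 and 16327 and 16499 in placebo (-0.52 ± 0.13, and 0.05 at the panel median scale). The difference between the B and T cell lists was not tested.

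The BAFF system, which keeps B cells alive and is raised in lupus, had 2 of 4 tested members higher and 2 lower. The 1 stable call in each direction was that of a receptor. Tnfsf13b encodes the ligand BAFF and had 47 and 27 in E2 and 14 and 17 in placebo (1.16 ± 0.37, adjusted p = 0.00328). Its placebo values were near the background, and the call was lost without E2 replicate 1 (0.77, adjusted p = 0.139) and on its own variance (adjusted p = 0.0675). Tnfrsf17, the receptor BCMA of plasma cells, was stably higher, with 153 and 114 in E2 and 77 and 74 in placebo (0.80 ± 0.22). The receptors of mature B cells were lower, Tnfrsf13c with 377 and 354 in E2 and 641 and 676 in placebo (-0.85 ± 0.16) and, on the deposited scale, Tnfrsf13b with 533 and 451 in E2 and 750 and 740 in placebo (-0.60 ± 0.15, and -0.04 at the panel median scale).

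Genes of germinal centres, where B cells refine their antibodies, and of plasma cells had 6 of 10 tested members lower and 1 higher, close to the share of all genes, and 3 lower and 3 higher at the panel median scale (median -0.46, -0.55 to 0.11). Bcl6, the master factor of the germinal centre, had 145 and 150 in E2 and 336 and 365 in placebo (-1.24 ± 0.18, adjusted p = 6.69e-10). Il21r, the receptor for the helper cytokine interleukin-21, had 187 and 180 in E2 and 491 and 543 in placebo (-1.49 ± 0.17), and Il21 itself had 16 and 21 in E2 and 59 and 36 in placebo (-1.28 ± 0.33), a call lost on its own variance (adjusted p = 0.0549). The plasma cell factors Prdm1 (-0.36 ± 0.19, adjusted p = 0.073) and Xbp1 (0.15 ± 0.13, adjusted p = 0.274) passed in neither direction. Prdm1 had 194 and 163 in E2 and 239 and 219 in placebo, and without E2 replicate 1 it passed as lower (-0.49). Xbp1 had 3100 and 2334 in E2 and 2553 and 2286 in placebo, and passed as higher without E2 replicate 2 (0.36) and at the panel median scale (0.72).

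Class II genes, which present antigen to helper T cells, were lower. All 8 tested members were lower, 5 stably (median -0.90, -0.99 to -0.33). Ciita, the factor that switches class II genes on, had 1145 and 1071 in E2 and 2176 and 2821 in placebo (-1.16 ± 0.13, adjusted p = 7.05e-15). H2-Ab1, a chain of the presenting molecule, had 5010 and 4411 in E2 and 7789 and 9946 in placebo (-0.90 ± 0.13), and H2-Ob, which tunes peptide loading in B cells, had 1708 and 1612 in E2 and 3136 and 3963 in placebo (-1.09 ± 0.13). Of the class I group 4 of 6 were lower as deposited, near the share of all genes, and 1 was lower and 1 higher at the panel median scale. Tap1, the peptide pump, was stably lower (1034 and 895 in E2, 1633 and 1802 in placebo, -0.83 ± 0.14).

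Proteasome subunits, which cut proteins into peptides, parted by type. The higher ones included subunits of the standard proteasome, Psmb7 with 1123 and 1168 in E2 and 925 and 859 in placebo (0.36 ± 0.14) and Psmc2 with 1326 and 1333 in E2 and 1093 and 1024 in placebo (0.33 ± 0.13). The immunoproteasome subunits Psmb9 (965 and 962 in E2, 1412 and 1156 in placebo, -0.41 ± 0.14) and Psmb10 (305 and 247 in E2, 449 and 385 in placebo, -0.60 ± 0.17) were lower on the deposited scale, but stood at 0.16 and -0.04 at the panel median scale. In all 4 of 6 were higher and 2 lower, with 0 stable calls, and at the panel median scale 4 were higher and 0 lower. Calls were lost without E2 replicate 2 for Psmb7 (0.33, adjusted p = 0.0604), Psmc2 (0.33, adjusted p = 0.0617) and Psmb10 (-0.45, adjusted p = 0.0518), without placebo replicate 26 for Psmc2 (0.28, adjusted p = 0.06) and without placebo replicate 22 for Psmb9 (-0.26, adjusted p = 0.0811).

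Interferon response genes, which are often high in lupus, did not pass as higher on the deposited scale. Of 18 tested members 0 were higher and 13 lower with 1 stable call, while 2 were higher and 2 lower at the panel median scale (median -0.64, -0.73 to -0.08). Irf7, the factor that amplifies type I interferon, had 167 and 127 in E2 and 186 and 150 in placebo, with overlapping groups (-0.20 ± 0.19, adjusted p = 0.36). Irf1, a target of interferon-gamma, had 957 and 866 in E2 and 1743 and 1618 in placebo (-0.88 ± 0.14). At the panel median scale Irf1 stood at -0.32. Ifnar1, a chain of the type I interferon receptor, was stably lower, with 820 and 793 in E2 and 1416 and 1609 in placebo (-0.90 ± 0.14), and the interferon genes Ifna1, Ifna2 and Ifnb1 were below the test filter.

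Chemokines moved in both directions, with 5 of 16 tested members higher and 5 lower, and 5 and 3 at the panel median scale. Ccl12, which attracts monocytes, had 65 and 84 in E2 and 9 and 5 in placebo (3.27 ± 0.35). Its placebo values were under the background, which leaves the size of this fold change uncertain. Ccl24, an attractant of eosinophils that macrophages make, had 382 and 321 in E2 and 104 and 116 in placebo (1.66 ± 0.17). Ccl5, a product of NK cells and T cells, had 734 and 563 in E2 and 1634 and 1468 in placebo (-1.27 ± 0.14). All 3 calls were stable.

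Chemokine receptors were lower in 10 of 16 tested cases and higher in 3, near the shares of all genes, and lower in 2 and higher in 4 at the panel median scale (median -0.59, -0.68 to -0.02). Beside Ccr7, described above, Ccr9, a receptor that guides T cells to the gut, was stably lower, with 314 and 263 in E2 and 709 and 912 in placebo (-1.48 ± 0.17). Cxcr6, a receptor of activated T cells and NKT cells, had 336 and 314 in E2 and 491 and 751 in placebo (-0.90 ± 0.17), and -0.59 was left without placebo replicate 26. On its own variance Cxcr6 lost its call (adjusted p = 0.0927).

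Interleukin receptors were lower in 15 of 25 tested cases, near the share of all genes that were lower, with 2 higher, and in 8, with 5 higher, at the panel median scale (median -0.66, -0.75 to -0.09). Il1rl1, the interleukin-33 receptor ST2 of mast cells and type 2 lymphocytes, was stably higher, with 160 and 187 in E2 and 47 and 42 in placebo (1.94 ± 0.21, adjusted p = 1.03e-15). Il27ra, the interleukin-27 receptor, had 555 and 445 in E2 and 1028 and 1272 in placebo (-1.20 ± 0.15), and Il4ra, the interleukin-4 receptor chain, had 875 and 762 in E2 and 1565 and 1940 in placebo (-1.09 ± 0.14). Gata3, the factor of type 2 helper T cells, was lower too (133 and 128 in E2, 298 and 374 in placebo, -1.35 ± 0.20). Within the type 2 list 2 of 10 tested members were higher and 3 lower, and 6 and 2 at the panel median scale.

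Of the interleukins and growth factors themselves 30 were on the panel, but only 12 reached the test. Il6 had 9 and 23 in E2 and 15 and 9 in placebo, and Il17a had 21 and 13 in E2 and 15 and 21 in placebo, values near the background that were not tested. Csf1, the macrophage growth factor, was stably lower, with 62 and 55 in E2 and 170 and 140 in placebo (-1.39 ± 0.24). Il1rn, the natural blocker of interleukin-1, had 99 and 85 in E2 and 57 and 28 in placebo (1.18 ± 0.28), and its call was lost without placebo replicate 26 (0.68, adjusted p = 0.0685).

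Growth and death signals included a few members against the general fall. Tgfb3, a ligand of the TGF-beta family, had 179 and 162 in E2 and 38 and 35 in placebo, a stable rise (2.19 ± 0.22, adjusted p = 7.11e-18), while Tgfbr2, its receptor, was stably lower, with 1458 and 1318 in E2 and 2790 and 3295 in placebo (-1.13 ± 0.13). Their list had 1 of 8 tested members higher and 5 lower, and 3 and 1 at the panel median scale. Tnfrsf14, the receptor HVEM that binds LIGHT and Btla, had 1295 and 1355 in E2 and 722 and 714 in placebo (0.88 ± 0.13), the only member of 11 tested in the TNF network that was higher as deposited. Bcl2, which protects lymphocytes from death, was lower, with 597 and 512 in E2 and 915 and 1214 in placebo (-0.93 ± 0.15).

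Genes of cytokine and NF-kB signalling were lower in large numbers as deposited, and in fewer cases at the panel median scale. JAK, STAT and SOCS genes, which carry cytokine signals, were lower in 13 of 14 tested cases, 4 stably, and NF-kB genes in 18 of 20, 7 stably. Of all genes, 59.5% were lower and 21.9% stably so. At the panel median scale 4 of the 14 and 7 of the 20 were lower, beside 23% of all genes, and 1 of each list was higher. Stat4, which answers interleukin-12, had 402 and 350 in E2 and 880 and 938 in placebo (-1.27 ± 0.15), and Jak3, the kinase of the common gamma chain receptors, had 451 and 377 in E2 and 865 and 1089 in placebo (-1.23 ± 0.15). Ikbkb, the kinase that frees NF-kB, had 367 and 314 in E2 and 614 and 844 in placebo (-1.08 ± 0.16). The list medians were -0.78 (-0.88 to -0.22) and -0.75 (-0.84 to -0.19), so with some scalings both stood near 0.

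Toll-like receptors and their adaptors had 8 of 16 tested members lower and 1 higher as deposited, a smaller share than of all genes, and 3 lower and 6 higher at the panel median scale (median -0.39, -0.49 to 0.16). Tlr9, which senses DNA in B cells and dendritic cells and has been studied in lupus, had 406 and 363 in E2 and 730 and 706 in placebo (-0.90 ± 0.15), a call lost under quantile normalisation (-0.38, adjusted p = 0.0575). Tlr1 (-0.96 ± 0.14) and the kinase Irak4 (-1.02 ± 0.15) were stably lower. Transcription factors of the Ikaros family, which shape lymphocytes, were lower in 4 of 4 cases, 3 of them stably. Ikzf1 had 1034 and 886 in E2 and 1761 and 1825 in placebo (-0.90 ± 0.13). Ikzf3 had 1240 and 1034 in E2 and 2133 and 2349 in placebo (-0.98 ± 0.13). Ikzf4 had 43 and 28 in E2 and 52 and 59 in placebo (-0.66 ± 0.31). Its call was lost at the panel median scale (-0.11) and on its own variance (adjusted p = 0.155). Fkbp5, a binding partner of the glucocorticoid receptor and a known target of glucocorticoids, fell stably as well, with 96 and 111 in E2 and 264 and 337 in placebo (-1.52 ± 0.20).

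Reference genes had a median log2 fold change of 0.02, near 0 by the scaling on them, but were not each level. Of the 12 that could be named 2 were higher and 2 lower, and their fold changes ran from -0.58 for Polr1b, a subunit of RNA polymerase I, to 1.02 for G6pdx. The scale thus rests on genes that differed from one another between the groups, and at the panel median scale their median was 0.58, with 11 higher and 0 lower.

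E2 was also set against EE, which differs from it by an ethynyl group at the 17-alpha carbon. With no dose in the labels, a matched exposure is not established. Of the 457 genes 50 were higher in E2 (10.9%) and 24 were lower (5.25%), and with each gene on its own variance 0 passed, with 77 at an unadjusted p under 0.05. These counts also varied more than 1.5-fold with the scaling and with single samples. Both comparisons use the same E2 samples, and a gene chosen for its rise over placebo is favoured in a second comparison of those samples.

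Most neutrophil genes were higher in E2 than in EE. Camp had 14127 and 15047 in E2 and 5913 and 6879 in EE (log2 fold change 1.19, adjusted p = 9.52e-15), S100a8 103948 and 120698 in E2 and 47517 and 54555 in EE (1.14), and Cxcr2 236 and 282 in E2 and 110 and 106 in EE (1.25). Of the granule list 4 of 5 were higher in E2, and of the myeloid receptors 9 of 11. Most platelet and red cell genes stood the other way. Itga2b had 94 and 66 in E2 and 385 and 210 in EE (-1.84, adjusted p = 6.22e-12), Ppbp 638 and 498 in E2 and 1675 and 1564 in EE (-1.52), and Tal1 1521 and 1652 in E2 and 2342 and 2224 in EE (-0.53). Of the erythroid list 4 of 5 were lower in E2, while of the platelet list 3 of 5 were lower and 1 was higher, Cd9 with 1256 and 1176 in E2 and 967 and 899 in EE (0.38, adjusted p = 0.0375).

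The macrophage markers that did not differ between E2 and placebo past the test were lower in E2 than in EE. C1qa had 2110 and 2266 in E2 and 3625 and 4063 in EE (-0.81, adjusted p = 9.43e-08), C1qb 2073 and 2029 in E2 and 3317 and 3791 in EE (-0.79), and Csf1r 1584 and 1531 in E2 and 1968 and 2247 in EE (-0.43). Ctsg, the gene with the largest rise over placebo, had 591 and 964 in E2 and 519 and 612 in EE and did not pass (0.42, adjusted p = 0.148). Gzma, with 406 and 203 in E2 and 280 and 342 in EE, and Il7r, with 945 and 686 in E2 and 648 and 685 in EE, did not pass either (-0.11 and 0.27, adjusted p = 0.703 and 0.165). Ccr9 did, with 314 and 263 in E2 and 132 and 169 in EE (0.94, adjusted p = 2.78e-06).

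Samples of a group were not alike in every respect. E2 replicate 1 had a higher value than E2 replicate 2 for 347 of the 457 genes, the lymphocyte genes Gzma, Il7r and Tcf7 among them, whereas S100a8, S100a9, Camp and Ctsg were higher in E2 replicate 2. Placebo replicate 22 was above placebo replicate 26 for 189 of the 457 genes, including S100a8, Camp, Ctsg, Cxcr2 and Clec4e, and below it for Cd3e, Il7r and Pax5. In both groups the sample with more S100a8 and Camp had less Cd3e, Il7r and Tcf7, which with 2 samples a group is only a description.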

How the data were processed

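Values came from the series' deposited table of 575 rows, of which 561 were genes and 14 were spike-in controls, and 549 gene rows had a RefSeq accession that could be paired with a symbol. The panel holds 14 reference genes, per the labels, which state no scaling. The deposited whole numbers were treated as a normalised score, not as raw counts, because of their values. With the 12 named reference genes and the best of 66 pairs of the 12 unnamed rows, the geometric mean differed by 0.0599% between samples, against 1.76% with the next pair, 6.07% with the 12 named genes alone and 31.9% for the positive controls. The software, scan cartridge and RNA input are not given in the sources used here, and samples were not tied to single mice.

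No further scaling was applied, because scaling to the panel would undo the one in the table. Genes with a mean of at least 20 were tested with limma 3.58.1 in R 4.3.3 on log2(value + 1), with a pseudocount of 1. The fit held all 6 samples with group means and an intensity trend, was two-sided and adjusted by Benjamini-Hochberg over 457 genes. The prior had 232.5 degrees of freedom against 3 from the samples. A fold change on this scale understates the change of low genes. The script was tested on simulated data.

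Genes described were drawn from the 12 largest rises and falls past the threshold, with no overlap of samples and a mean of at least 50 in the higher group, the 4 or fewer lowest p-values of each list, the reference genes, 8 genes fixed whatever their result (Foxp3, Prdm1, Irf7, Ifng, Il17a, Il10, Il6 and Tnfsf13b) and cell type markers. Others named for their pattern were chosen after their values were seen. The comparison, the lists and the markers were chosen with earlier results of these data known. Alternatives changed the scaling, background, pseudocount, filter, prior and samples. The test of each gene on its own variance was added after seeing the data. Python 3.11.15 drew figures and searched promoters. Some measured genes are not reported here.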

Additional observations from a re-analysis of the deposited data

How the results depend on the processing

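The genes called higher and lower in E2 numbered 130 and 115 with trimmed mean scaling, 134 and 105 with panel median scaling, and 101 and 152 with quantile normalisation, against 63 and 272 as deposited. Other scalings gave 55 and 286 (reference genes made equal), 51 and 277 (positive controls) and 73 and 255 (column totals). Genes higher in E2 were 18.8% of called genes as deposited and between 15.5% and 56.1% over the scalings. On its own variance each gene gave 39 higher and 214 lower, which kept 37 of the 63 and 209 of the 272. Leaving out 1 sample gave 48 to 65 higher and 225 to 270 lower. Subtracting the negative controls, a pseudocount of 10, no filter, a mean of at least 50, no intensity trend, a robust prior, only the 4 E2 and placebo samples, and an adjusted p under 0.1 each left both counts within 1.5 times. The 74 genes that differed between E2 and EE became 127 with positive control scaling, 31 with no intensity trend and 0 on own variances, and 27 to 77 without 1 sample. They were 33 without E2 replicate 1, 43 without E2 replicate 2, 27 without EE replicate 11 and 37 without EE replicate 14. Of the genes described, Psmb9 reversed, to 0.13 with trimmed mean, 0.16 with panel median and 0.17 with quantile scaling, and Ms4a1 to 0.0239 with trimmed mean and 0.0479 with panel median scaling. The reference gene Eef1g was at -0.28 as deposited and at 0.26, 0.29 and 0.28 with these 3 scalings in turn. Lower calls of Cr2, Ctla4, Icos, Foxp3, Gpr183, Ikzf4, Tnfrsf13b, Ms4a1, Fcgr2b, Cd55, Irf1, Tlr9, Cxcr6, Il21, Marco, Cx3cr1, Psmb10 and Polr1b were lost under at least 1 of these 3 scalings. Csf1r, C1qa, C1qb and Xbp1 passed as higher with these 3 scalings. Ifng passed with no intensity trend, and Prdm1 with reference genes made equal, with positive controls and without E2 replicate 1. Count models were not run, because the values are not raw counts. No paired analysis was possible because the replicate numbers of the groups differ. Genes near the background of 10.1 to 13.7 are limited by it, and the cause of the differences between settings was not tested.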

Other observations

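Of the genes in none of the lists, 97 of those tested, 7 were higher and 61 lower in E2, beside 13.8% and 59.5% of all tested genes. The share that was lower was thus near that of all genes. The following are named after their values were seen. Plau, urokinase, a protease of neutrophils and macrophages that activates plasminogen, had 43 and 47 in E2 and 16 and 24 in placebo (log2 fold change 1.16 ± 0.32, limma adjusted p = 7.28e-04). Hlx, a homeobox factor of blood and type 1 helper T cells, had 64 and 71 in E2 and 35 and 43 in placebo (0.78 ± 0.29), and Clu, the secreted chaperone clusterin, had 169 and 141 in E2 and 100 and 98 in placebo (0.64 ± 0.19). Hlx lost its call without E2 replicate 2 (0.71, adjusted p = 0.0931), without placebo replicate 22 (0.64, adjusted p = 0.0666) and on its own variance (adjusted p = 0.0761), where Plau lost its call too (adjusted p = 0.0566). Among the lower genes, Mapk11, a p38 kinase, had 18 and 20 in E2 and 45 and 59 in placebo (-1.40 ± 0.33). Ptpn22, a phosphatase that restrains T cell receptor signals and whose variants are linked to autoimmunity in human, had 1500 and 1180 in E2 and 3243 and 3380 in placebo (-1.31 ± 0.13). Nfatc2, a factor that answers calcium signals in T cells, had 224 and 191 in E2 and 364 and 512 in placebo (-1.06 ± 0.18).

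Several genes below the test filter had samples that did not overlap, and they carry no test. Fcamr, a receptor for IgM and IgA, had 16 and 15 in E2 and 6 and 6 in placebo. Cdh5, the cadherin of vessel lining cells, had 12 and 11 in E2 and 32 and 31 in placebo. Tnfrsf9, the costimulatory receptor 4-1BB, had 8 and 8 in E2 and 17 and 20 in placebo. Of the 12 rows that could not be named 7 were tested, and 5 of them were lower in E2, beside 59.5% of all tested genes.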
